A study of Rattus norvegicus with 4 samples.

Results

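The genes described here carried m6A peaks on 3 or more different transcripts. They were chosen by the measured peak lists themselves: the peaks of the Vector and FTO groups were pooled, and a gene with a gene ID was kept when its peaks had been assigned to at least 3 Ensembl transcripts. The rule kept 90 of 8534 genes with a peak, or 1.05%, and 85 of the 90 had a symbol in the RefSeq table. Since the lists chose the genes, their number of transcripts is a description and has no test.

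The data came from neonatal rat cardiac fibroblasts (NRCFs), primary cells taken from hearts of healthy Sprague-Dawley rats no more than 3 days after birth. The cells were transfected with the empty plasmid (Vector, genotype WT) or with a plasmid for FTO (FTO overexpression), and RNA was collected 48 h later. m6A-seq sequences RNA fragments bound by an antibody against m6A beside the input RNA, and each group had 1 m6A-IP and 1 input library, so a difference between the groups cannot be set against replicate error and no p-value is given. The study asked which RNAs lose m6A when FTO is raised. For each peak the lists give its length in base pairs (bp), 1 transcript and a gene ID. The number of rats pooled for the cells and the share of cells that took up the plasmid are not given in the sources used here.

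m6A is written onto adenosines of mRNA by a methyltransferase complex around METTL3 and METTL14, and FTO is a demethylase that can remove it. It is known to lie mostly in long internal exons and near stop codons, where reader proteins bind it and affect splicing, decay and translation. Many genes make several transcripts that differ in their first exon, their last exon or cassette exons, so peaks of 1 gene can carry different transcript names either because they lie in different exons or because several transcripts share the exon and 1 was picked as the name. Which of these holds for a peak could not be read from the lists, and how the name was picked is not given in the sources used here. A transcript with a peak is therefore a label of a place in the gene and not a measurement of that isoform.

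The Vector list held 21249 peaks and the FTO list 17796, and the sequencing depth is unknown, so the effect of depth on these numbers was not removed. Fto had 3 peaks on 1 transcript in Vector and 9 peaks on 2 transcripts in FTO, and peaks on the plasmid transcript were not separated from those on the rat gene. Eprs1, the tRNA synthetase gene the study followed, had 3 peaks on 2 transcripts in Vector and 1 peak in FTO. With 2 transcripts each, both fell outside the rule. Peaks were listed for 7 of 12 cardiac fibroblast markers, 7 of 10 cardiomyocyte markers, 7 of 8 macrophage markers, 6 of 8 smooth muscle and pericyte markers, 2 of 6 epicardial markers and 1 of 8 endothelial markers. Of the fibroblast markers, Col1a1, Col1a2, Col3a1, Dcn and Vim had no peak, while Pdgfra, Lum, Tcf21, Postn, Ddr2, Thy1 and Fn1 had one in at least 1 list. A peak list does not show how much RNA a gene had. Summed over each list, Vector and FTO held 15 and 12 peaks on fibroblast markers, 24 and 26 on cardiomyocyte markers, 20 and 9 on macrophage markers, 25 and 25 on smooth muscle and pericyte markers, 4 and 2 on epicardial markers and 0 and 2 on endothelial markers. None of the markers was among the 90 genes, and the part of other cells in the differences below was not tested. Fewer cells of a type and less RNA per cell cannot be told apart in such bulk samples.

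Of the 90 genes, 79 had 3 transcripts with a peak, 9 had 4, 1 had 5 and 1 had 6. Another 919 genes had peaks on 2 transcripts, and 7525 had all their peaks on 1. The 90 genes held 613 Vector peaks and 497 FTO peaks, which was 2.88% and 2.79% of the lists. They had many peaks each, with a median of 10 over both lists together (lowest 3, highest 38) against 6 for genes with 2 transcripts. The ratio of FTO to Vector peaks was 0.811 in the 90 genes and 0.837 over all genes with an ID.

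By known function, the largest group of the 90 belonged to the cytoskeleton, its motors and cell junctions, with 23 genes. Receptors, ligands and signalling proteins had 14 genes, translation and RNA handling 13, transcription and chromatin 13, and membrane traffic with the Golgi and ER 12. Metabolism, matrix, DNA repair and others had 10, and 5 genes had no symbol. These groups were made after the values were seen. In a separate list of 98 cytoskeleton and adhesion scaffold genes, 85 had a peak and 9 of those, or 10.6%, were among the 90: Macf1, Plec, Ank2, Ank3, Clasp1, Cttn, Magi1, Nav1 and Cit. In the lists of matrix, RNA-binding, m6A, chromatin, transcription factor, signalling and cell cycle genes 1 or 2 genes each were among the 90. That was from 1.11% (signalling) to 4.76% (m6A, 1 of 21) of their genes with a peak. Over all genes with a peak the share was 1.05%. These lists were likewise chosen with results of these data known.

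Peaks of the 90 genes lay on 252 transcripts in Vector and on 235 in FTO. Of the 284 transcripts in all, 203 had a peak in both lists, 49 in Vector alone and 32 in FTO alone. The shared transcripts were 80.6% of those in Vector and 86.4% of those in FTO, and over all genes the same shares were 80.0% and 87.2%. The shares were thus close to those of all genes, most of which had 1 transcript. In genes with 2 transcripts they were 79.4% and 87.3%. In genes with 1 transcript but 3 or more peaks they were 96.9% and 99.4%. The rule pooled the lists, so a transcript found in 1 list alone also helped a gene to reach 3, and these shares depend in part on the rule.

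Fewer transcripts carried a peak in FTO than in Vector for 29 of the 90 genes (32.2%), as many for 44 (48.9%), and more for 17 (18.9%). Over all genes with a peak, 18.9% had fewer and 11.0% had more, but most of those genes had only 1 transcript that could be gained or lost. Among the 919 genes with 2 transcripts, 26.9% had fewer and 14.4% had more. The number was lower by 2 transcripts in 8 genes and by 1 in 21, and higher by 2 in 3 genes and by 1 in 14. Numbers of peaks were lower in FTO more often than numbers of transcripts: 53 of the 90 genes (58.9%) had fewer peaks in FTO, against 41.7% of all genes, and 21 (23.3%) had more, against 21.3%. The other 16 (17.8%) had as many, against 37.0% of all genes. The median of the 90 genes was 6 peaks per gene in Vector and 4 in FTO, against 2 and 1 over all genes. Genes with few peaks tie more easily, so the shares of all genes are not a like comparison. Among genes with 1 transcript but 3 or more peaks, 48.2% had fewer peaks in FTO, and among those with 2 transcripts 50.1%.

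**Figure D1:**
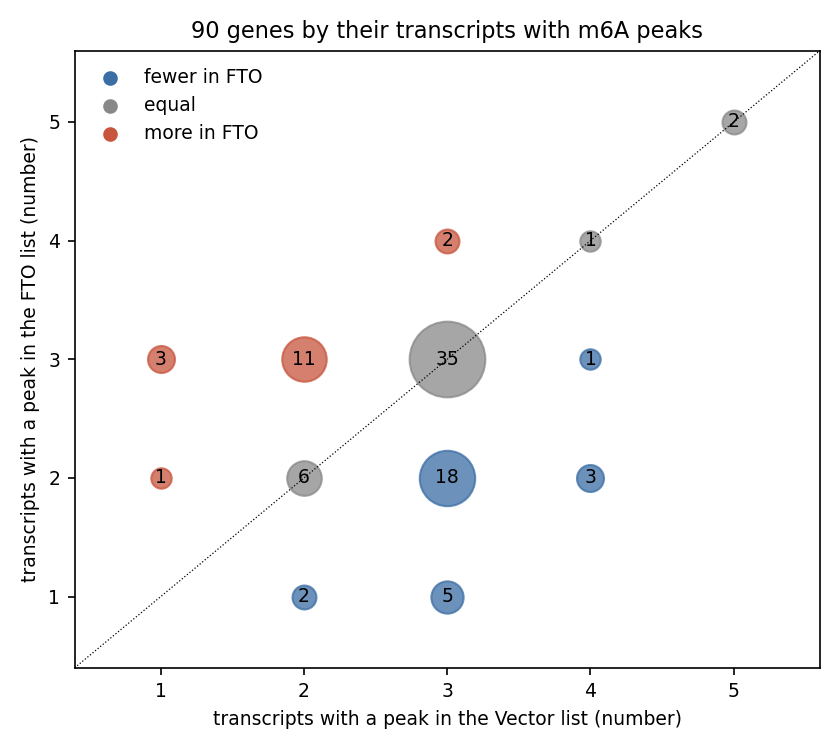
Each circle counts genes by the number of their transcripts with an m6A peak, in Vector along the x axis and in FTO along the y axis, with the number of genes written in it and its area growing with that number. The largest circle holds 35 genes with 3 transcripts in each list, and 18 genes had 3 transcripts in Vector and 2 in FTO while 11 had 2 in Vector and 3 in FTO.

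In the lists taken alone, 67 of the 90 genes reached 3 transcripts in Vector and 55 in FTO, 41 did so in both, and 9 did so only when the lists were pooled. The same transcripts were named in both lists for 35 genes. In 27 genes some transcripts were in Vector alone and none in FTO alone, in 16 genes it was the reverse, and 12 genes had transcripts of each list alone. Peaks of the same number, length and transcript were listed for both groups in 5 genes: Homer1, a postsynaptic scaffold, Akap12, an anchor of protein kinase A, Gcnt2, a glycosyltransferase, Golim4, a Golgi membrane protein, and the gene with ID 103693266. No transcript was shared by the lists in 3 genes, or 3.33%, against 26.3% of all genes, most of which had 1 transcript and few peaks. In genes with 1 transcript but 3 or more peaks it was 3.65%, and in those with 2 transcripts 12.1%. The 3 genes were Rab1a, a GTPase of transport from the ER to the Golgi, Septin4, a septin of the cytoskeleton, and Col4a4, a chain of basement membrane collagen.

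Plec, which codes for plectin, a large protein that links intermediate filaments to actin and to cell junctions, had the most transcripts. Its 7 Vector peaks and its 7 FTO peaks lay on 5 transcripts each, and 4 of the 6 transcripts in all were shared. The peak at one end was 7383 bp long in both lists, and 4 more peaks, of 310, 272, 732 and 140 bp, had a counterpart of equal length on the same transcript. Between the peaks of 272 and 732 bp the Vector list had a peak of 398 bp on ENSRNOT00000040762 and the FTO list one of 212 bp on ENSRNOT00000081021. The last Vector peak, of 205 bp on ENSRNOT00000042642, had no counterpart in FTO, whose list had a further peak of 357 bp on ENSRNOT00000006311. Plec therefore had the same number of peaks in both lists, with 1 transcript named in each list alone.

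Asph codes for aspartate beta-hydroxylase and, through other transcripts, for the calcium-handling ER proteins junctin and junctate. It had 15 peaks in Vector and 11 in FTO on the same 5 transcripts, and 9 peaks were paired. The difference lay on the leading transcript, the one with the most peaks, which had 11 Vector peaks and 5 FTO peaks. In the opposite direction, ENSRNOT00000076426 had 1 peak in Vector and 3 in FTO, where peaks of 1143 and 1631 bp stood at one end of the gene. The 3 transcripts at the other end each kept a single peak of the same length, namely 69, 153 and 321 bp.

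Optn codes for optineurin, an autophagy receptor, and it had 11 peaks in each list. A partner of equal length on the same transcript was found for 10 of the 11. In the remaining place Vector had a peak of 117 bp on ENSRNOT00000074087 and FTO one of 186 bp on ENSRNOT00000081940. Mdn1, an ATPase of ribosome assembly, showed the same form with fewer peaks left, since it had 12 peaks in Vector and 9 in FTO, of which 7 were paired. There a Vector peak of 192 bp on ENSRNOT00000067610 stood where the FTO list had one of 483 bp on ENSRNOT00000076388.

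**Figure D2:**
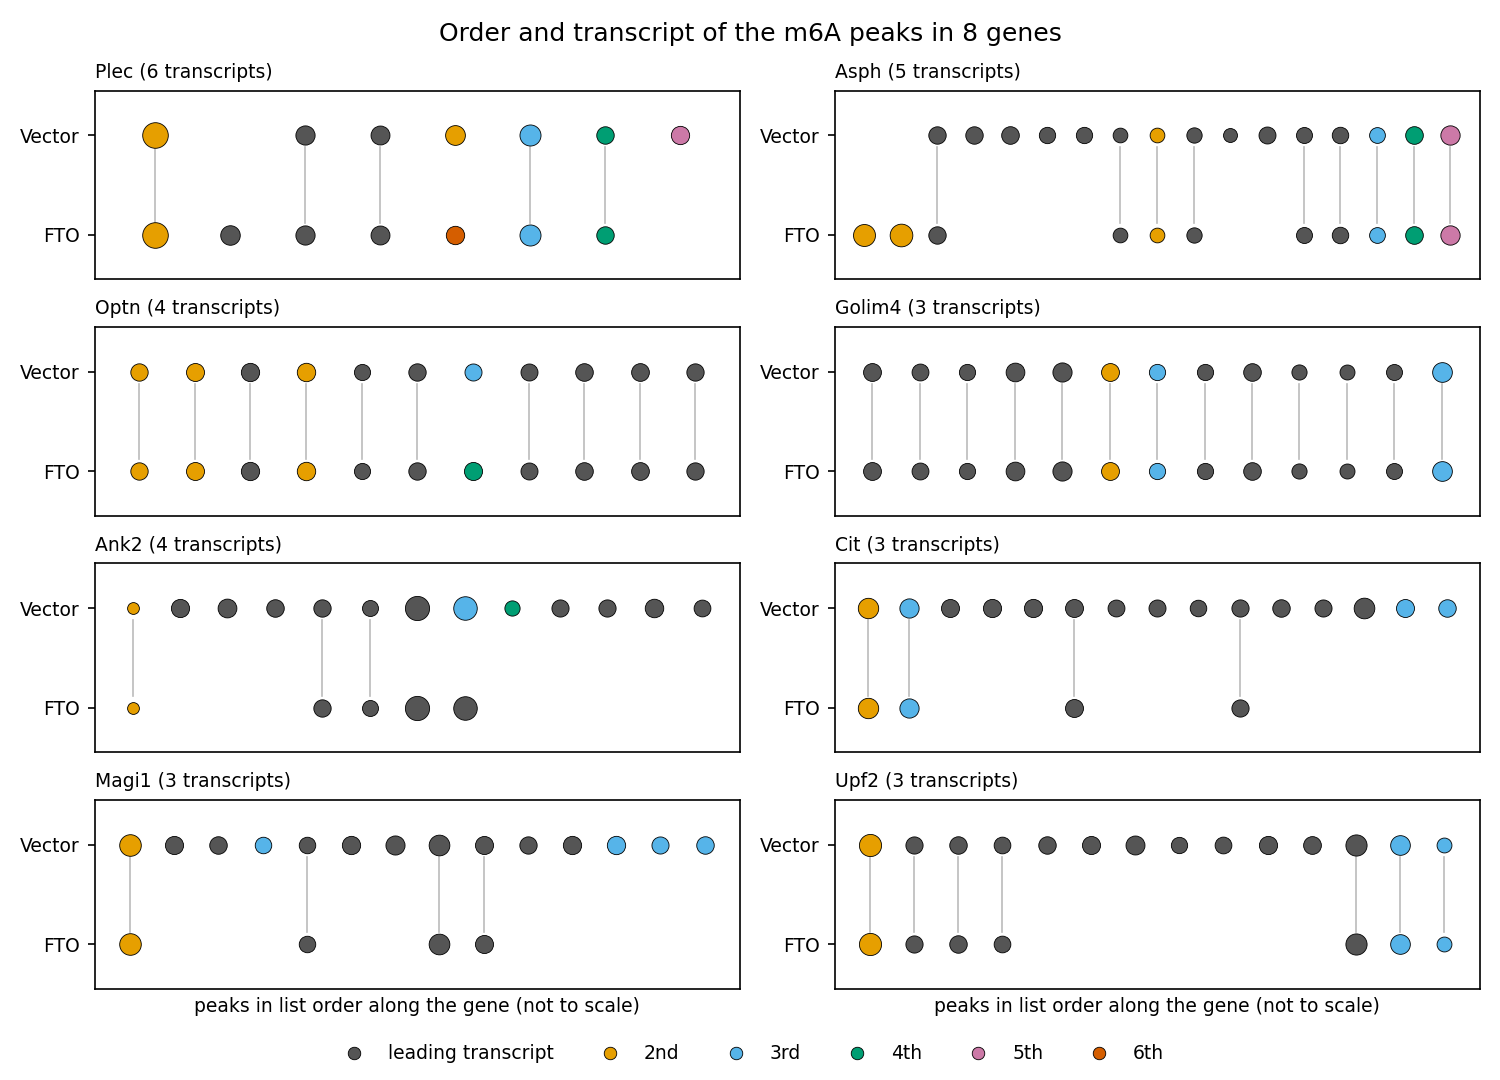
Peaks of 8 genes are drawn in the order of the lists along the gene (x axis, not to scale), with Vector above and FTO below. Colours stand for transcripts, dot size grows with peak length, and lines join peaks of equal length on the same transcript. Golim4 has all 13 peaks joined, Optn has 10 of 11 joined, Cit and Magi1 have 4 joined out of 15 and 14 Vector peaks, and Upf2 has 7 joined out of 14.

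Members of the cytoskeleton list differed widely in how many peaks the FTO list held. Cit, citron kinase of cytokinesis, had 15 Vector peaks and 4 FTO peaks, the widest gap among the 90 genes. All 4 FTO peaks had a partner of equal length, and each of its 3 transcripts kept at least 1 peak. Magi1, a scaffold of tight junctions, had 14 Vector peaks and 4 FTO peaks, also all paired, and its transcript ENSRNOT00000071315, with 4 Vector peaks, was absent from FTO. Ank2, ankyrin-B, which anchors membrane proteins to the spectrin skeleton, had 13 peaks on 4 transcripts in Vector and 5 peaks on 2 in FTO. Of the 5 FTO peaks 3 were paired, and the other FTO peaks, of 3573 and 2528 bp on the leading transcript, lay in a stretch with 7 unpaired Vector peaks, among them those of 3515 bp on the leading transcript and 2479 bp on ENSRNOT00000080470. The Vector peaks of Cit and Magi1 without a partner were 94 to 608 bp long.

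Macf1, the giant linker of microtubules and actin, had no fewer peaks in FTO. It had 14 Vector peaks and 15 FTO peaks, with 11 paired, among them one of 5319 bp on ENSRNOT00000081482. Its single peak on ENSRNOT00000084109, of 351 bp, was in the Vector list alone, so its transcripts numbered 3 in Vector and 2 in FTO. Kif1b, a kinesin motor, had 7 peaks on 4 transcripts in Vector and 5 peaks on 3 in FTO. The transcript that was missing, ENSRNOT00000080888, had 1 Vector peak of 77 bp. With shorter peaks than 200 bp left out, Kif1b instead had 1 transcript more in FTO. Over the 23 genes of the cytoskeleton, motors and junctions, a group made after the values were seen, 11 had fewer transcripts in FTO, 7 as many and 5 more, and their peaks numbered 201 in Vector and 148 in FTO. Of the 9 genes of the separate cytoskeleton list 3 had fewer, 5 as many and 1 more, beside 32.2% with fewer over the 90 genes.

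Where FTO had 2 transcripts fewer, the genes mostly had 3 to 6 Vector peaks, Ank2 and Odf2 aside. Odf2, a protein of the centriole appendages, had 12 Vector peaks on 3 transcripts and 5 FTO peaks, all paired, on 1. Fancm, a DNA translocase of the Fanconi anaemia pathway, had 6 Vector peaks, the longest of 1876 bp, and 1 FTO peak, of 558 bp and with a partner. Nrg1, the ErbB ligand neuregulin, had 4 peaks on 3 transcripts in Vector and 2 peaks on 1 in FTO. The transcript of Nrg1 named in both lists, ENSRNOT00000013991, had a single peak of 1646 bp in Vector and peaks of 204 and 769 bp in FTO, and 2 Vector peaks of 444 bp lay on different transcripts.

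Ablim1, an actin-binding LIM protein, had 5 Vector peaks of 75 to 198 bp on 3 transcripts and 1 FTO peak of 318 bp. With peaks of at least 200 bp only, it had 1 transcript more in FTO, since none of its Vector peaks reached that length. Akr1b8, an aldo-keto reductase, had 3 Vector peaks on 3 transcripts and kept 1, of 202 bp, in FTO. Eif4ebp3, which codes for a protein that binds the cap-binding factor eIF4E, had 14 peaks in each list, with 12 paired, and its transcript ENSRNOT00000032316, with a single peak of 319 bp, was in Vector alone. Its neighbour in the RefSeq table, Ankhd1, had no peak in either list, and whether peaks under the ID of Eif4ebp3 came from Ankhd1 RNA was not tested.

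FTO had 2 transcripts more in 3 genes, each with a single Vector peak, among them Mxi1 and Pfkfb3. Mxi1, a repressor that pairs with MAX, had 1 Vector peak of 172 bp and 4 FTO peaks, of which that one was kept and those of 449 and 339 bp lay on added transcripts. Pfkfb3, a regulator of glycolysis, had 1 Vector peak of 208 bp, which was kept, and 3 more FTO peaks, with the longest, of 2567 bp, on the added transcript ENSRNOT00000051067. In both of these genes 1 Vector peak could hold only 1 transcript name, so the number of transcripts followed the number of peaks.

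Of the genes with 1 transcript more in FTO, 5 are described by the rule of largest differences. Tacc2, a coiled-coil protein of the centrosome, had 8 peaks in Vector and 10 in FTO, with 6 paired, and its added transcript ENSRNOT00000054937 had a peak of 3622 bp. Agap3, an Arf GTPase-activating protein, had 7 peaks in Vector and 6 in FTO, and a peak of 393 bp on ENSRNOT00000084777 stood where Vector had one of 135 bp on the leading transcript. Wasf2, which drives branched actin assembly, had 6 peaks in each list, 5 of them paired, with a peak of 470 bp on an added transcript in FTO. Tbc1d14, a Rab-related regulator of autophagy, had 6 and 7 peaks, with 5 paired and an added transcript with a peak of 120 bp. Wdr62, a spindle pole protein, had 5 and 8 peaks and is taken up again below, because its peaks lay in separate parts of the lists.

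**Figure D3:**
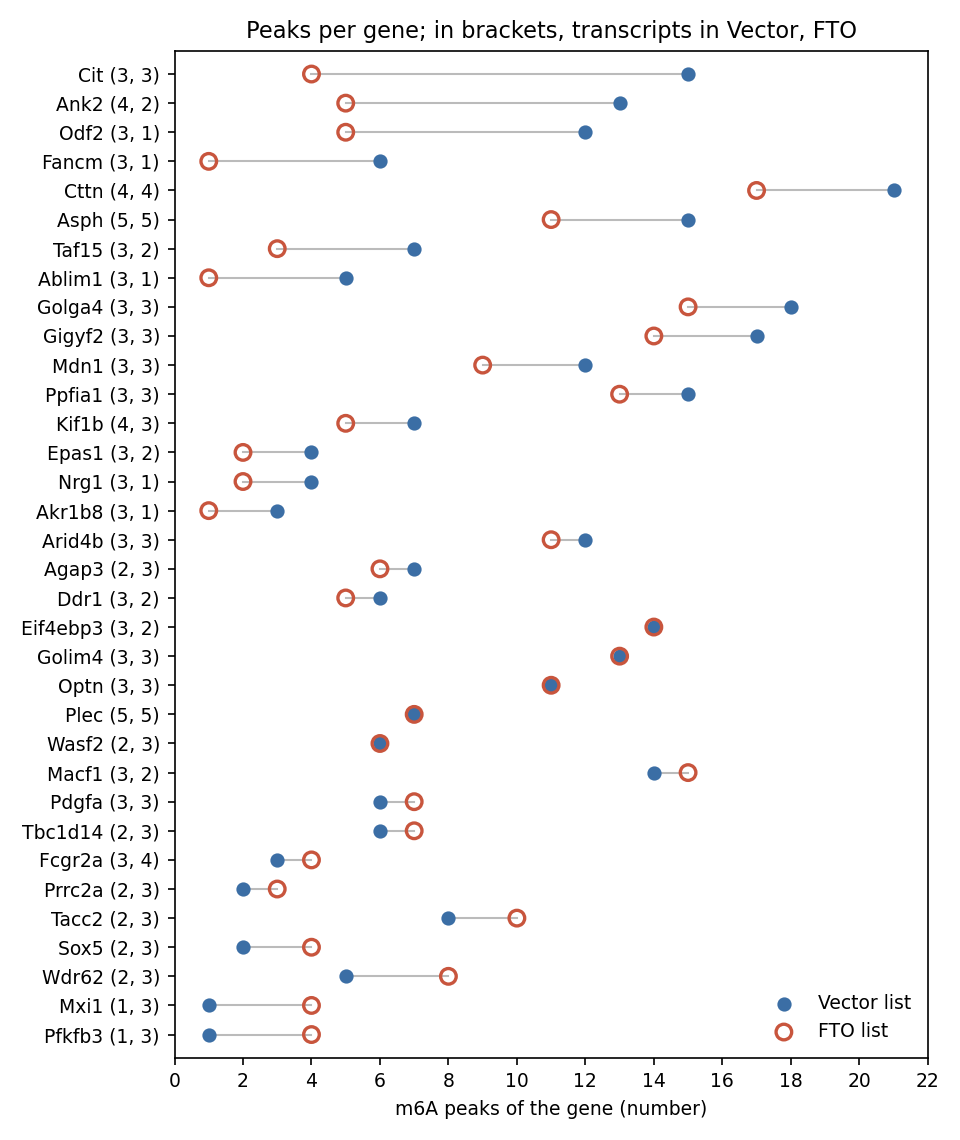
Filled dots give the number of m6A peaks of each named gene in Vector and open circles that in FTO, with the numbers of transcripts in Vector and FTO in brackets. Of the 34 genes, Cit has 15 peaks in Vector and 4 in FTO, and Mxi1 and Pfkfb3 have 1 and 4.

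Genes with the same 3 or more transcripts in both lists differed in how many of their peaks were paired, from 4 of 15 Vector peaks in Cit to all 13 in Golim4. Golga4, a golgin that tethers vesicles, had 18 Vector peaks and 15 FTO peaks, and all 15 were paired, including one of 4196 bp. Gigyf2, which represses translation together with a cap-binding protein, had 17 and 14 peaks with 13 paired, and its Vector peak of 1741 bp had no counterpart, so its longest FTO peak was 237 bp. Ppfia1, the adaptor liprin-alpha-1, had 15 and 13 peaks with 11 paired, and its Vector peak of 1266 bp was likewise missing. Golim4 had 13 peaks in each list, all equal. Over the 12 genes of membrane traffic, Golgi and ER, 1 had fewer transcripts in FTO, 8 as many and 3 more. Over the 90 genes the numbers were 29, 44 and 17. Of the Vector peaks of the 12 genes 72.4% were paired, and of those of the 23 cytoskeletal genes 55.7%. The share was 60.7% over all genes with 3 or more transcripts. Both groups were made after the values were seen, so the difference between their shares is only a description. The part of single genes with many peaks in that difference was not tested.

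The genes that stood in other lists gave single cases. Ddr1, a receptor tyrosine kinase for collagen, had 6 Vector peaks and 5 FTO peaks, and the transcript absent from FTO had 1 peak of 59 bp. Its peak of 962 bp was the same in both lists. Pdgfa, a ligand of the PDGF receptors on fibroblasts, had 6 and 7 peaks on the same 3 transcripts, with 5 paired. Taf15, an RNA-binding protein of the FET family, had 7 peaks in Vector and 3 in FTO, all 3 paired. Prrc2a, a reader of m6A, had 2 Vector peaks, of 423 and 1851 bp, which were both kept, and a further FTO peak of 119 bp on ENSRNOT00000092322.

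Epas1, the hypoxia-inducible factor HIF-2 alpha, had 4 Vector peaks on 3 transcripts and 2 FTO peaks, both paired, on 2. Sox5, an SRY-related transcription factor, had 2 Vector peaks, of 927 and 217 bp, and 4 FTO peaks, of which one of 217 bp was paired and those of 121 and 232 bp were on an added transcript. Arid4b, a subunit of a histone deacetylase complex, had 12 and 11 peaks with 8 paired. Fcgr2a, a receptor for IgG on myeloid cells, had 3 Vector peaks, all kept, and a further FTO peak of 194 bp on ENSRNOT00000091821. Of the 13 genes of transcription and chromatin, 2 had fewer transcripts in FTO, 9 as many and 2 more, and of the 13 genes of translation and RNA handling the numbers were 5, 7 and 1. For the 14 receptor, ligand and signalling genes they were 2, 9 and 3, and for the 10 genes of metabolism, matrix, DNA repair and others 6, 2 and 2.

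A Vector peak and an FTO peak of equal length were taken as partners, each peak being used once, first on the same transcript and then on another transcript of the same gene. In the 90 genes 372 pairs were found, which was 60.7% of the Vector peaks (95% Wilson interval 56.8% to 64.5%) and 74.8% of the FTO peaks (70.9% to 78.5%). Over all genes 57.3% of Vector peaks and 68.4% of FTO peaks were paired, and in genes with 1 transcript but 3 or more peaks the shares were 61.4% and 72.9%. The intervals cover counting error only, and peaks of 1 gene are not independent. In none of the 90 genes did a peak have its partner of equal length on another transcript, and over all genes there were 2 such pairs. Partners on the same transcript were sought first and lengths had to be equal, which leaves little room for partners on another transcript. With lengths within 10%, 2.45% of the Vector peaks of the 90 genes had such a partner.

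In some genes all FTO peaks were paired, which rests on length and transcript name, not on positions. Genes of this kind were not counted outside the 90. Paired FTO peaks made up 74.8% in the 90 genes and 73.2% in genes with 2 transcripts. In 25 of the 90 genes each FTO peak had a partner of equal length on the same transcript, and 20 of these had fewer peaks in FTO. Each peak was used once, so a gene of this kind cannot have more peaks in FTO. The remaining ones were the 5 genes with identical peaks, and the direction is fixed by the pairing. Upf2, a factor of nonsense-mediated decay, had 14 Vector peaks and 7 FTO peaks, all 7 paired, and its 3 transcripts were in both lists. Phldb1, a protein at the cell cortex, had 12 and 8 peaks, Nav1 had 12 and 10, and Prkcb, a protein kinase C, had 7 and 4, all FTO peaks again being paired on the same 3 transcripts. Hp1bp3, a chromatin protein, had 6 Vector peaks and 3 FTO peaks, all 3 paired, and 1 transcript fewer in FTO.

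The reverse was also seen. In 15 genes each Vector peak had a partner, and 10 of these had more peaks in FTO, a direction that the pairing likewise fixes. The remaining ones were the same 5 genes with identical peaks. Ubap2, a ubiquitin-associated protein, had 7 Vector peaks, all paired, and 9 FTO peaks on the same 3 transcripts. Ank3, ankyrin-G, had 3 and 5 peaks, and Nek6, a mitotic kinase, 2 and 4, and each had 1 transcript in FTO alone. No peak was paired in 10 genes, among them Nrg1, Col4a4, Ablim1, Mxd4 and Zfp94. The 5 genes without a symbol had 21 Vector peaks and 17 FTO peaks together.

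A transcript found in 1 list alone mostly had a single peak. This held for 41 of 49 transcripts of Vector alone (83.7%) and 30 of 32 of FTO alone (93.8%). Of Vector transcripts with 1 peak, 72.5% were also in the FTO list (64.8% to 79.0%), of those with 2 to 3 peaks 89.3% (78.5% to 95%), and of those with 4 or more 95.7% (85.8% to 98.8%). FTO transcripts were found in the Vector list in 79.6%, 96.0% and 100% of cases in the same order. In genes with 1 transcript the shares for Vector were 67.5%, 88% and 96.3%, each inside the interval of the 90 genes. How often a transcript was seen again therefore went with its number of peaks and was not measurably different in genes with several transcripts.

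**Figure D4:**
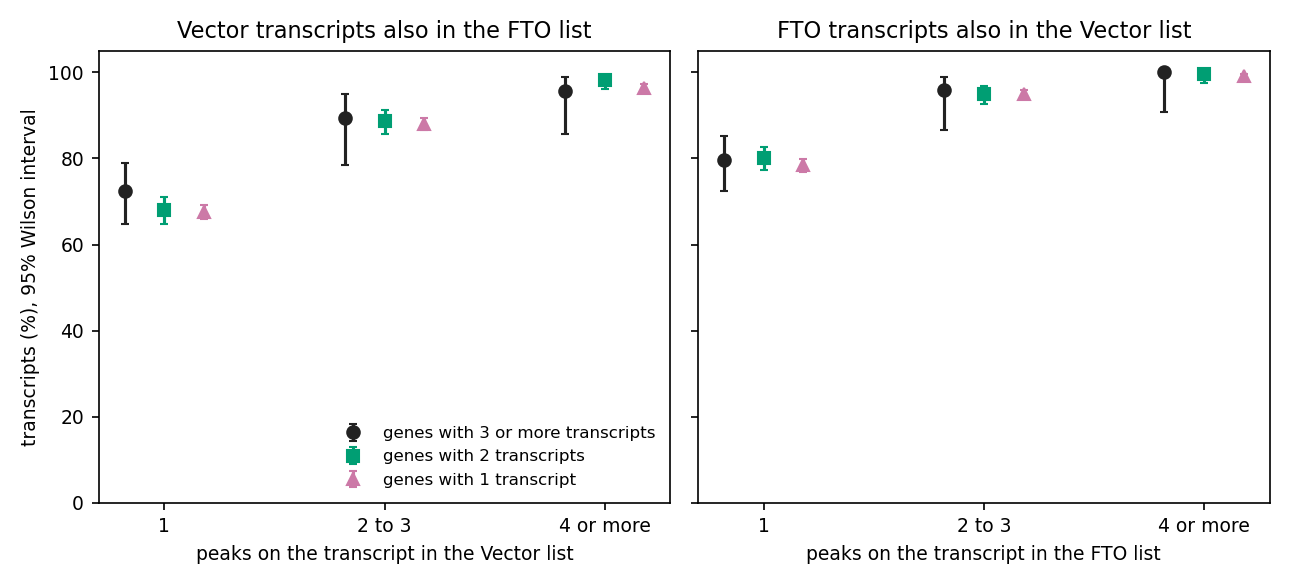
The y axis gives the share of transcripts with a peak in 1 list that also had one in the other, by their number of peaks (x axis), for Vector transcripts on the left and FTO transcripts on the right, with 95% Wilson intervals. For Vector transcripts of genes with 3 or more transcripts the share is 72.5% with 1 peak and 95.7% with 4 or more, and the intervals of the 3 kinds of genes overlap at each number of peaks.

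The leading transcript of a gene, that with the most peaks in both lists together, held 61.8% of the Vector peaks and 61.6% of the FTO peaks. It was present in both lists in 87 of the 90 genes, while 116 of the 194 other transcripts (59.8%) were, a contrast that the choice of the leading transcript by its peaks largely fixes. Where both lists had 3 or more peaks and 1 clear leading transcript, which held for 50 genes, it was the same in 45. It differed in Synrg, a partner of the clathrin adaptor, Zfp622, a zinc finger protein, Nav1, a neuron navigator on microtubules, Ddx19b, an RNA helicase of mRNA export, and Wdr62. Peaks without a partner made up 36.4% of Vector peaks on leading transcripts and 44.0% on others, and 21.2% and 31.4% of FTO peaks. The intervals were 31.7% to 41.4% against 37.8% to 50.4% in Vector, and 17.0% to 26.2% against 25.3% to 38.3% in FTO. They overlapped, which does not show that the shares are equal.

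The first and last peaks of a gene were often not on its leading transcript. The peak numbers of the lists run in genome order, so the first and last peak of a gene can be told from those between, without positions. In the 49 genes with at least 6 Vector peaks, 65 of the 98 outermost peaks (66.3%, 56.5% to 74.9%) lay on a transcript other than the leading one, against 98 of the 384 peaks between (25.5%, 21.4% to 30.1%). In the 30 genes with at least 6 FTO peaks the shares were 65.0% and 27.0%. In genes with 2 transcripts they were 42.2% and 10.7% in Vector, where fewer transcripts can be other than the leading one. Counted by transcript there was no such contrast, since 61.2% of leading and 62.2% of other transcripts held an outermost peak in Vector, and 63.3% and 60.3% in FTO. The shares of peaks follow in part from the definition, since the leading transcript is the one with the most peaks and a gene has only 2 ends. The median length of the outermost peaks was 209 bp and that of the peaks between 149.5 bp in Vector, and 250 bp and 156 bp in FTO. Without a partner were 48% of outermost (38.3% to 57.7%) and 35.2% of other Vector peaks (30.5% to 40.1%), and 26.7% and 18.1% of FTO peaks. The intervals overlapped in both lists, which does not show that the shares are equal.

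**Figure D5:**
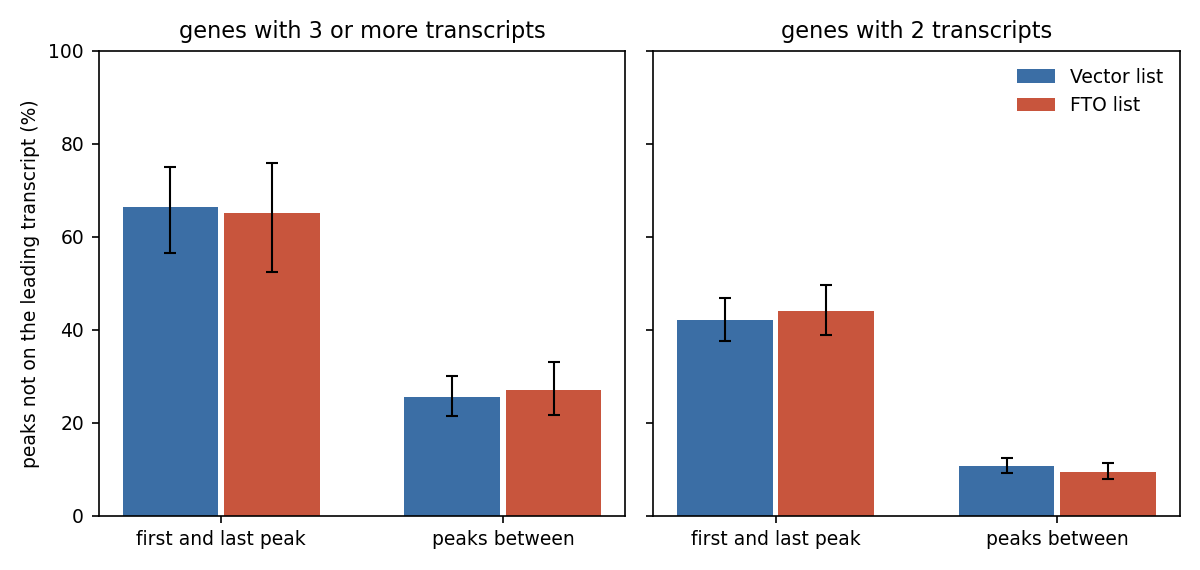
Bars give the share of peaks that were not on the leading transcript of their gene, for the first and last peak of the gene and for the peaks between, in genes with at least 6 peaks in the list, with 95% Wilson intervals. Outermost peaks stand at 66.3% in Vector and 65.0% in FTO, and peaks between at 25.5% and 27.0%, in genes with 3 or more transcripts.

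In some places the lists had peaks of different transcripts at the same point in the order. Of the 49 transcripts of Vector alone, 28 lay where the FTO list also had an unpaired peak of the gene and 21 where it had none, and of the 32 of FTO alone 15 and 17. These counts include the 10 genes in which no peak was paired and the whole gene was 1 stretch. A single Vector peak faced a single FTO peak between the same neighbours in 29 places, and in 11 of these, in 10 genes, the transcripts differed. In 7 of the 11 the FTO peak was the longer. The lengths were within 20% of each other in 3, namely Zfp37, a zinc finger protein, with 1078 and 1172 bp, Brms1l, a subunit of a histone deacetylase complex, with 91 and 94 bp, and Rab11fip1, an effector of Rab11 recycling endosomes, with 436 and 474 bp. The widest contrast was in Cyp4f5, a cytochrome P450, with 887 bp in Vector and 62 bp in FTO. Without positions, peaks at the same point in the order need not overlap.

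In the genes without a shared transcript no peak was paired, so no order could be compared. Rab1a had 1 Vector peak of 96 bp and FTO peaks of 200 and 150 bp, and Septin4 had Vector peaks of 164 and 124 bp and an FTO peak of 400 bp. Col4a4 had 9 Vector peaks of 64 to 182 bp, 8 of them on ENSRNOT00000077503, and 1 FTO peak of 1797 bp on ENSRNOT00000076472. No transcript name of Col4a4 was found again, and with 8 peaks fewer in FTO it came after Cit and Magi1 together with Ank2.

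For some genes the peaks did not lie in 1 unbroken run, and values for them join separate places. Peaks of other genes or without a gene ID were listed between the first and last peak in 9 of the 90 genes (interval of the share 5.35% to 17.9%), against 4.46% (3.31% to 6.0%) of genes with 2 transcripts. The latter had fewer peaks each, and the effect of this was not removed. Cttn, the actin-binding protein cortactin, had 30 Vector peaks and 26 FTO peaks of other genes between its own, and Wdr62 had 45 and 31. The 9 genes were Gspt1, Cttn, Fcgr2a, Coro7, Wdr62, Trmt61a, Tbc1d14 and the genes with IDs 257642 and 102547059. In FTO, 8303 such peaks lay between the first and last peak of gene 257642, the last being 72 bp long.

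Equal lengths also recurred on different transcripts of the same gene within a list. At least 1 length did so in 18 of the 90 genes (interval of the share 13.0% to 29.4%), against 3.92% (2.84% to 5.38%) of genes with 2 transcripts, and at least 2 lengths did in 6, against 8 of 919. The 90 genes had more transcripts and peaks each, so more lengths could coincide. Cttn had 21 Vector peaks and 17 FTO peaks, and on ENSRNOT00000028283 and ENSRNOT00000054859 the lengths 56, 111, 55, 111, 130 and 87 bp came in the same order in both lists. Gspt1, the translation release factor eRF3a, had peaks of 42, 231, 78 and 181 bp on each of 2 transcripts in both lists. Arid4b had peaks of 114, 1215 and 241 bp on each of 2 transcripts in both lists. Lmo4, a LIM-only transcription cofactor, had 239 and 360 bp on ENSRNOT00000067502 and again on other transcripts. Whether such peaks come from near-identical copies in the genome, among which reads cannot be placed, was not tested, and for these genes the number of transcripts is uncertain.

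Peaks of the 90 genes were short. Their median length was 170 bp in Vector and 185 bp in FTO, against 203 and 227 bp over all genes and 190 and 208 bp for genes with 1 transcript but 3 or more peaks. Genes with 2 transcripts came closer, with medians of 181 and 195 bp. Peaks of at least 1000 bp made up 8.16% of the Vector peaks and 9.46% of the FTO peaks of the 90 genes, against 14.2% and 16.7% over all genes. The shares were 10.9% and 13.1% in genes with 2 transcripts. In genes with 1 transcript but 3 or more peaks they were 11.9% and 13.8%. On the leading transcripts of the 90 genes the median was 156 bp in Vector and 167 bp in FTO, and on the others 205 and 229 bp. FTO peaks were thus the longer in each of these classes, in the 90 genes as in all genes.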

How the data were processed

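Rat NRCFs of the Vector and FTO groups were compared with 1 m6A-IP and 1 input library each. The authors deposited 1 peak list per group, and the deposited value is the peak length in bp, not normalized, beside 1 Ensembl transcript and, for most peaks, a gene ID of NCBI. Peak names carry the prefix MACS. The submitters' processing notes name cutadapt 1.9.3, HISAT2 2.0.4 and the build rn6. Caller settings, thresholds and the rule that picked the transcript are not given in the sources used here, and depth, positions and enrichment were not analysed.

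Peaks without a gene ID (248 in Vector, 213 in FTO) were left out. Transcripts and peaks were counted per gene and list, peaks were paired by equal length, and peak numbers gave their order. Symbols came from RefSeq (GRCr8). The members and lists were chosen with earlier results of these data known. Genes were named by number of transcripts, largest differences either way, identical transcript sets and gene lists, ties going to more peaks. Cyp4f5, Magi1, Col4a4, Rab1a, Septin4, Upf2, Ubap2 and others outside this rule were chosen after their values were seen. Scripts were tested on simulated lists and run with Python 3.11.15, pandas 2.3.3 and scipy 1.17.1. Alternatives were minimum lengths of 100 and 200 bp, 4 or more transcripts, 3 or more in 1 list alone, transcripts with 2 or more peaks, numbers of peaks, genes with a peak in both lists and looser pairing. Leaving out genes with interrupted or recurring peaks was added after seeing the data. Some genes that the naming rule selected are not reported here.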

Additional observations from a re-analysis of the deposited data

How the results depend on the processing

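With 1 library pair per group no library could be left out, and depth is unknown. No paired analysis was possible because the groups held a single m6A-IP library each. Of 50 alternative values 31 stayed near those reported, but some of these could not move. All 90 genes had a peak in both lists, so that setting changed nothing. Leaving out peaks or genes cannot add a partner of equal length on another transcript. The tally therefore does not measure how stable the results are. The 90 genes became 38 with peaks of at least 200 bp, 11 with 4 or more transcripts and 43 with transcripts of 2 or more peaks. Genes with fewer transcripts in FTO were then 12, 4 and 2, and genes with more were 8, 2 and 2. As shares, 31.6%, 36.4% and 4.65% had fewer, against 32.2% of the 90 genes. The shares with more were 21.1%, 18.2% and 4.65%, against 18.9%. By numbers of peaks, 53 genes had fewer in FTO. Genes with no shared transcript were 0 under these 3 settings and when 3 transcripts were asked of 1 list alone. Shared transcripts made up 71.5%, but 76.7% with that last setting and 97.0% with transcripts of 2 or more peaks, where 67.4% of Vector peaks had a partner. Peaks were counted over both lists together for the setting of 2 or more peaks. It therefore passed every shared transcript and dropped every transcript with a single peak in 1 list alone. The 97.0% and the counts of 2 and 2 follow largely from that. Vector peaks with a partner on another transcript were 2.45% with lengths within 10% and 1.79% within 20 bp, against 0. Without the 12 genes with interrupted or recurring peaks, 26 of 78 genes had fewer transcripts in FTO and 13 had more. Of 70 values for named genes 51 were unchanged and 2 reversed with peaks of at least 200 bp, both to 1 transcript more in FTO: Kif1b and Ablim1.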
